A study of Mus musculus with 43 samples.

Results

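The miR-30 family was described here as the 6 precursor genes Mir30a, Mir30b, Mir30c-1, Mir30c-2, Mir30d and Mir30e, taken by name from the gene rows of each small RNA count table (Mir30a-201, Mir30b-201, Mir30d-201, Mir30e-201 and the corresponding rows of Mir30c-1 and Mir30c-2). These are 6 of 312 miRNA rows in the epididymis tissue table, 6 of 331 in the epididymal fluid table and 6 of 394 in the sperm table. All 6 had enough counts to be tested in each table, among 3488, 2023 and 2480 small RNAs tested, respectively.

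The study sequenced small RNAs of male FVB mice aged 8 to 12 weeks that were wild type (WT) or lacked the Rnase9-12 gene cluster (KO), and compared the genotypes in 3 materials. Tissue of the caput, corpus and cauda epididymis (the proximal, middle and distal segments through which sperm pass) was sequenced by ARM-seq, a ligation protocol with enzymatic removal of RNA methylation, in 3 WT and 3 KO libraries per segment, except that the KO corpus had 2. Luminal fluid of the same segments, cleared of sperm, vesicles and cells, and mature cauda sperm were sequenced by OTTR-seq, in which a reverse transcriptase joins the adapters by template jumping, with 3 WT and 3 KO fluid libraries per segment and 4 WT and 4 KO sperm libraries. The deletion was carried in the germline, so every cell of a KO mouse lacked the 4 genes, and each fluid or sperm library held RNA pooled from 3 mice, whereas pooling of tissue was not stated.

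A microRNA is cut from a hairpin precursor and loaded into an Argonaute protein, where it pairs with messenger RNAs mainly through its seed, the bases near its 5′ end, and lowers their translation and stability. Members of a family share the seed and are therefore expected to recognise overlapping sets of messenger RNAs. The miR-30 family is abundant in many epithelia, the kidney among them.

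The mature sequences are shown because they define the family and determine which rows can share reads. RefSeq (GRCm38.p6) entries matched 4 of the 6 genes. Mir30b and Mir30d had no entry there, so their arms are neither shown nor included in the seed count below. The capitals mark the seed (bases 2 to 8), and all sequences are written 5′ to 3′.
miR-30a-5p: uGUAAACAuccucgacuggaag
miR-30e-5p: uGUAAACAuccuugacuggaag
miR-30c-5p: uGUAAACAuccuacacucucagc
The seed GUAAACA was shared by 4 of 1679 mature mouse names in that table, the fourth being miR-384-5p. Counted from 1 at the 5′ end, miR-30a-5p and miR-30e-5p differed by 1 substitution, C13U. The miR-30a-5p and miR-30c-5p sequences differed at 5 positions (C13A, G14C, G18C, G19U and A20C). Mir30c-1 and Mir30c-2 gave an identical 5′ arm, with 0 differences over 23 bases. The opposite arms separate them, and are shown for that reason.
miR-30a-3p: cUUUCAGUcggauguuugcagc
miR-30e-3p: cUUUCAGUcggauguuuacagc
miR-30c-1-3p: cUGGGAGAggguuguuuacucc
miR-30c-2-3p: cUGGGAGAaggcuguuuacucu
The miR-30c-1-3p and miR-30c-2-3p sequences differed by G9A, U12C and C22U, and miR-30a-3p and miR-30e-3p by G18A. The counting kept a read on every feature it matched equally well. Counts of Mir30c-1 were 83.3 to 100% of those of Mir30c-2 in the tissue libraries, 95.8 to 100% in fluid and 94.3 to 100% in sperm. The 2 rows are thus largely 1 measurement and are uncertain as separate genes, and arms were not separated within a row. Counts of members given below include both rows, so such members are not independent.

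The 6 genes lie in 3 pairs on the mouse genome (GRCm38). Mir30a (chr1:23272269-23272339, plus strand) overlapped no annotated gene, and Mir30c-2 (chr1:23291701-23291784, plus strand) lay 19361 bases downstream, in an exon of the lincRNA Gm27028. Mir30b (chr15:68337415-68337510, minus strand) lay in an exon of the processed transcript Gm26621, and Mir30d (chr15:68341208-68341289, minus strand) 3697 bases away in an exon of the lincRNA Gm20732. Mir30c-1 (chr4:120769534-120769622, minus strand) and Mir30e (chr4:120772606-120772697, minus strand) were 2983 bases apart within introns of Nfyc, which encodes a subunit of the CCAAT-binding factor NF-Y, on its strand.

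Across the 43 libraries, total counts ranged from 30.1 to 249.7 M in tissue (M, 1000000 counts), 1.95 to 12.3 M in fluid and 1.13 to 62.1 M in sperm. MicroRNA rows held 0.0219 to 0.0618% of the counts in tissue, 0.130 to 0.812% in fluid and 0.0386 to 0.168% in sperm. A read counted on several rows adds to the total each time. Totals and shares of counts are therefore not numbers or shares of reads, and depth below means these totals. Transcripts of the deleted genes had no row in these tables, so the genotypes could not be checked from the counts. The fluid caput libraries and 1 WT caput tissue library (replicate 3) carry a section entry of cauda against a caput title, and the title was followed. Germ cell microRNAs (Mir34b and Mir34c among them) summed to 17.9 to 47.2 CPM (counts per 1000000, scaled between the libraries of a table) in sperm, 1.995 to 31.6 CPM in fluid and 0.0382 to 0.462 CPM in tissue, so fluid libraries cleared of sperm still held germ cell microRNAs, while 5 of 5 epithelial microRNAs were counted in every material. Epithelial microRNAs summed to 7.57 to 25.9 CPM in tissue, 27.1 to 298 CPM in fluid and 6.24 to 23.8 CPM in sperm. Smooth muscle microRNAs summed to 20.6 to 215 CPM in tissue, 76.8 to 470 CPM in fluid and 4.23 to 18.4 CPM in sperm. Because fluid cleared of cells held both, these sums do not tell which cells a material contained. Blood microRNAs summed to 1.63 to 55.4 CPM in sperm, 15.3 to 120 CPM in fluid and at most 0.0538 CPM in tissue. Leukocyte microRNAs summed to 2.64 to 10.2 CPM in sperm, so the sperm libraries also held microRNAs listed for other cells. Because the materials were counted in separate tables, members are compared by CPM only within a table, and the marker sums above are given side by side as a check of the labels.

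The miR-30 rows together made up 1.23 to 4.33% of microRNA counts in the 17 tissue libraries (median 1.95%), 3.29 to 6.30% in the 18 fluid libraries (median 4.88%) and 5.81 to 7.80% in the 8 sperm libraries (median 6.87%). Reads that matched Mir30c-1 and Mir30c-2 equally were counted on both rows. This raises the family share and the shares of this pair, and lowers the shares of the other members. Which member led differed by material. In tissue, Mir30a held 33.0 to 59.4% of the miR-30 counts (median 49.3%) and Mir30d 16.7 to 28.4% (median 22.6%). Mir30c-2 was lower in tissue, at a median of 10.2%, ahead of Mir30c-1 at 9.38%, Mir30e at 7.43% and Mir30b at 2.22%.

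In fluid the order was different. Mir30c-2 held 26.5 to 35.8% of the miR-30 counts (median 32.5%) and Mir30c-1 25.8 to 35.1%, followed by Mir30b at a median of 15.4%. The medians of Mir30d, Mir30a and Mir30e in fluid were 8.15%, 6.93% and 4.27%. In sperm, Mir30c-2 (median 35.8%) and Mir30c-1 (35.2%) again led, Mir30b held 14.9%, and Mir30d was the smallest at 2.26%.

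Ratios within a library do not depend on its depth and show the same contrast. Mir30a counts were 2.05 to 9.95 times those of Mir30c-2 in tissue, but 0.149 to 0.391 times in fluid and 0.113 to 0.314 times in sperm. Mir30d counts were 7.5 to 116 times those of Mir30b in tissue, against 0.264 to 1.11 times in fluid and 0.0909 to 0.286 times in sperm. The upper limit in tissue rests on 1 count of Mir30b in KO corpus replicate 1, and the next highest tissue library was at 19.2. The ranges of tissue did not overlap those of the other materials in either ratio. Tissue was sequenced by one protocol and fluid and sperm by another, so material and protocol cannot be told apart in these differences, and no test was run between tables. Among microRNA rows ranked by mean CPM, which weights libraries equally, Mir30a stood at 21 of 312 in tissue and at 57 of 331 in fluid, whereas Mir30c-2 stood at 58 in tissue, 16 in fluid and 10 of 394 in sperm.

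**Figure D1:**
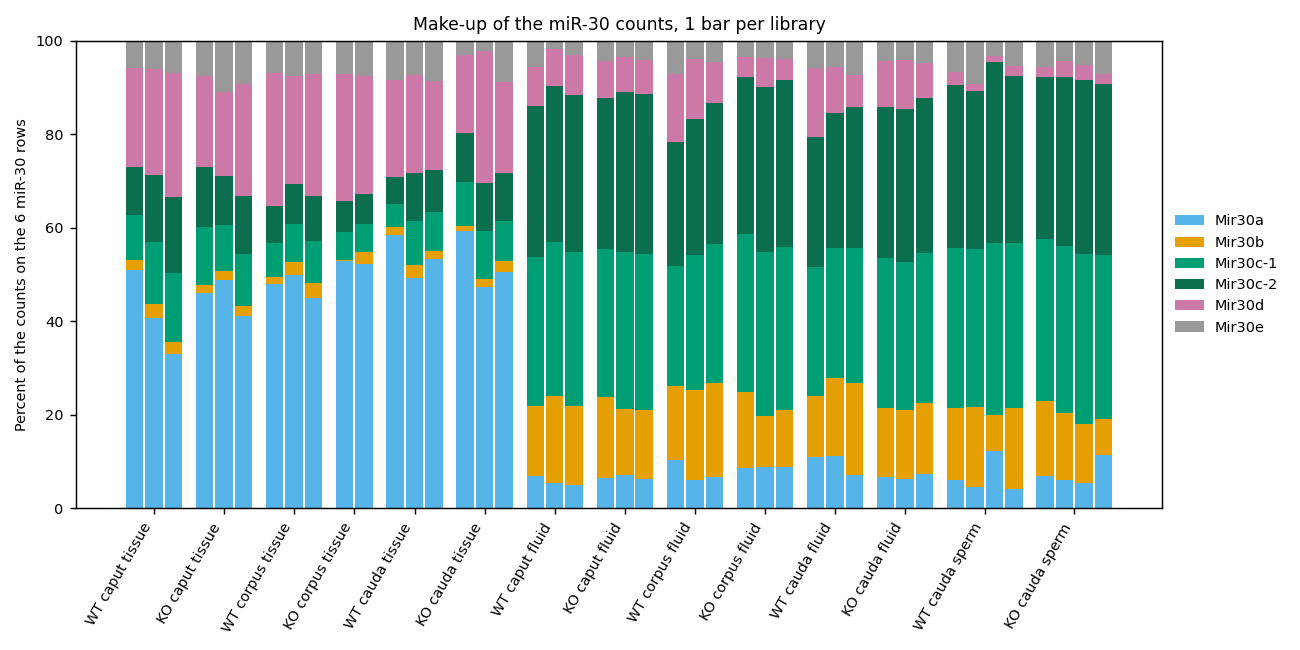
Share of miR-30 counts (%) held by each of the 6 members in every library, for tissue, fluid and sperm; each stacked bar is 1 library. Mir30a and Mir30d lead in tissue (medians 49.3% and 22.6%), and Mir30c-1 and Mir30c-2 lead in fluid and sperm. Reads shared by Mir30c-1 and Mir30c-2 are counted on both rows, which raises the shares of this pair.

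The levels of the members in each segment and genotype are given next, as mean CPM ± SD within a table. In tissue, Mir30a was highest in WT corpus (6.92 ± 1.8, n = 3), followed by WT cauda (4.50 ± 1.7, n = 3), KO caput (3.52 ± 0.76, n = 3), KO cauda (3.40 ± 0.77, n = 3), KO corpus (3.27, n = 2) and WT caput (2.82 ± 1.7, n = 3). Apart from the first step, from WT corpus to WT cauda, neighbours in this order were closer than 1 SD. In such bulk tissue, fewer cells of a type and less RNA per cell cannot be told apart. WT corpus had the highest mean of all 6 members in tissue, with Mir30d at 3.70 ± 0.53, Mir30c-2 at 1.27 ± 0.34, Mir30c-1 at 1.19 ± 0.35, Mir30e at 1.05 ± 0.29 and Mir30b at 0.371 ± 0.18 CPM (n = 3 each).

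In fluid, Mir30c-2 was highest in KO corpus (93.8 ± 29 CPM), then KO caput (84.3 ± 20), KO cauda (64.4 ± 16), WT caput (46.3 ± 11), WT cauda (38.1 ± 8.8) and WT corpus (25.9 ± 6.9), each with n = 3. Neighbours in that order were within 1 SD of each other, except for KO caput against KO cauda, KO cauda against WT caput and WT cauda against WT corpus. All 6 members had their lowest fluid mean in WT corpus, down to 4.6 ± 1.3 CPM for Mir30e and 10.4 ± 0.91 CPM for Mir30d. In sperm, Mir30c-2 averaged 26.7 ± 18 CPM in WT and 29.5 ± 5.2 CPM in KO (n = 4 each).

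**Figure D2:**
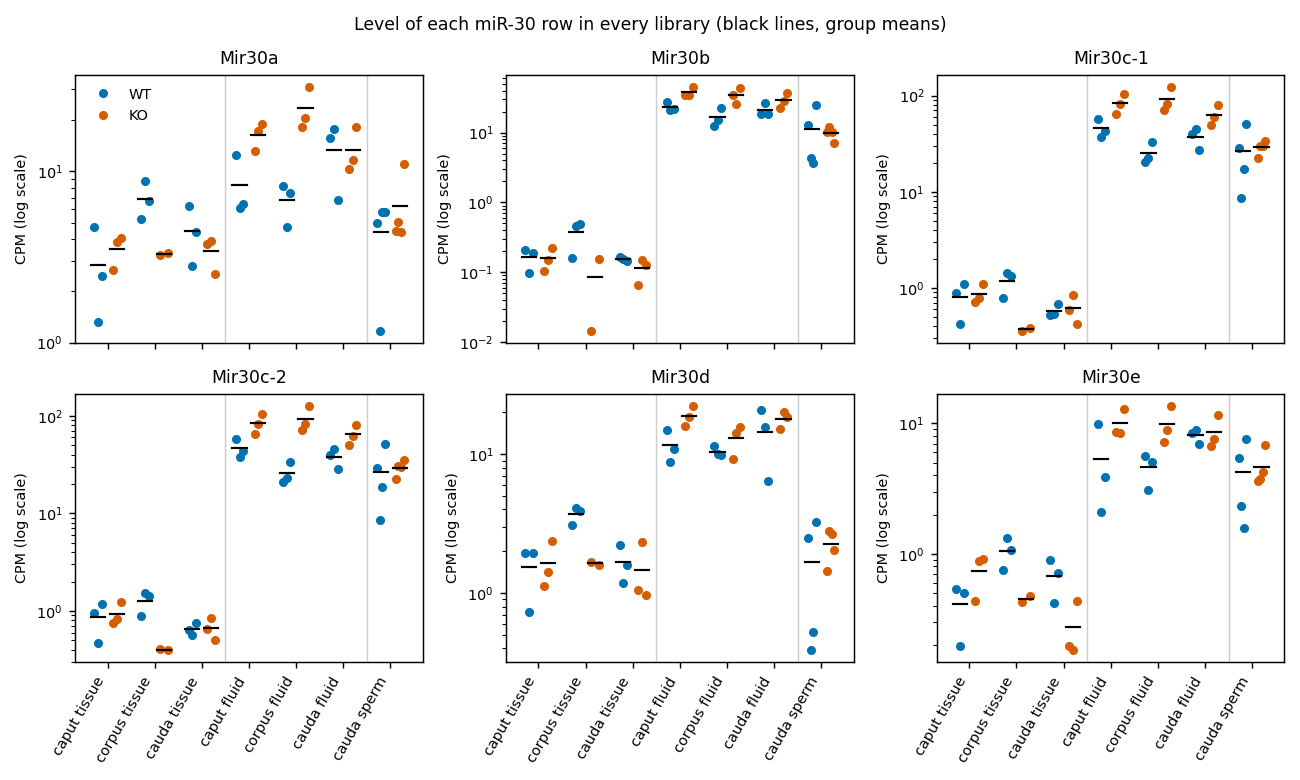
Level of each member (CPM, log scale) in every library by material, segment and genotype, scaled within each material; points are libraries and lines group means. WT corpus stands highest in tissue (Mir30a 6.92 CPM on average) and lowest in fluid (Mir30c-2 25.9 CPM).

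The genotype comparison in which members passed the edgeR test was that of corpus fluid, where Mir30a, Mir30c-1 and Mir30c-2 were higher in KO. Mir30c-2, the leading member of fluid, was at 21.05, 22.8 and 33.8 CPM in the WT libraries and 71.4, 83.2 and 127 CPM in the KO libraries. The lowest KO library was above the highest WT library. Relative to WT, Mir30c-2 was higher by 1.86 on the log2 scale (SE 0.39, adjusted p = 0.00235, edgeR quasi-likelihood test with Benjamini-Hochberg adjustment over all RNAs tested). Mir30c-1, which shares those reads, differed by the same 1.86 (SE 0.39, edgeR adjusted p = 0.00235).

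Mir30a was at 8.21, 4.71 and 7.45 CPM in WT corpus fluid and at 18.04, 20.5 and 31.1 CPM in KO. The groups did not overlap, and Mir30a rose by 1.78 on the log2 scale (SE 0.45, edgeR adjusted p = 0.00816). Its call was lost without WT replicate 2 (log2 fold change 1.37, edgeR adjusted p = 0.114) or WT replicate 3 (1.63, edgeR adjusted p = 0.0675). Mir30c-2 kept its call with any 1 of the 6 libraries left out, at log2 fold changes of 1.58 to 1.97.

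Mir30b was at 12.5, 15.2 and 22.5 CPM in WT and 34.9, 25.9 and 43.5 CPM in KO, without overlap. Its log2 fold change was 1.05 (SE 0.38, edgeR adjusted p = 0.0523), just over the threshold of 0.05. Mir30e, which differs from miR-30a by 1 base in its 5′ arm, was at 5.67, 3.11 and 5.03 CPM in WT and 7.22, 8.91 and 13.7 CPM in KO. Its groups did not overlap either, with a log2 fold change of 1.11 (SE 0.49, edgeR adjusted p = 0.113). Mir30d was at 11.5, 9.98 and 9.86 CPM in WT and 9.22, 14.3 and 15.7 CPM in KO. Its ranges overlapped, and its log2 fold change was 0.33 (SE 0.42, edgeR adjusted p = 0.646).

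**Figure D3:**
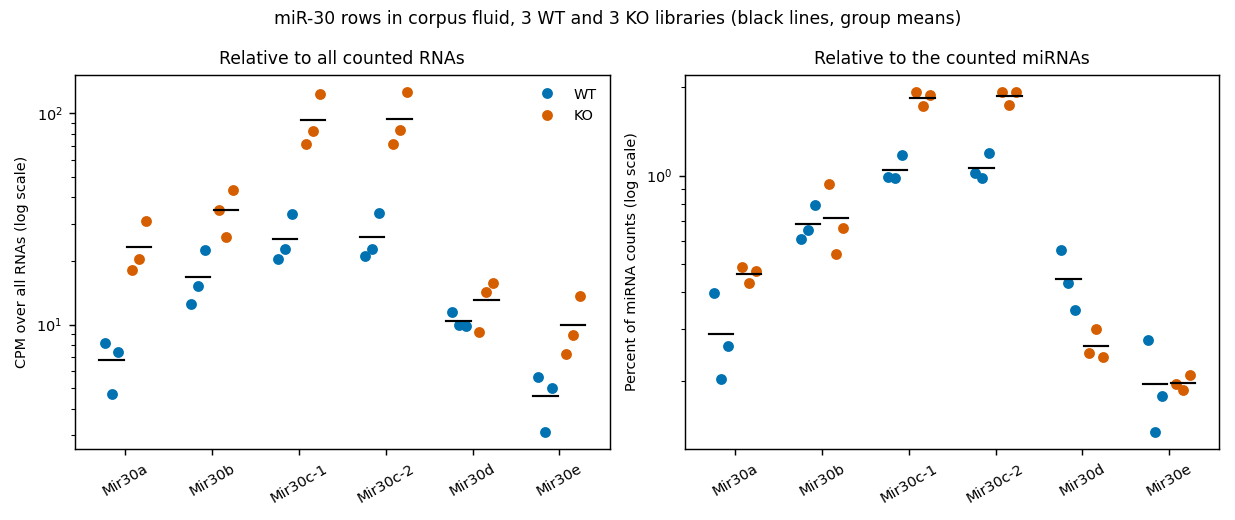
Level of each member in the 3 WT and 3 KO corpus fluid libraries, as CPM (left) and as percent of microRNA counts (right), both on log scales; each point is 1 library and each line a group mean. Mir30d is the member whose CPM overlap between genotypes, and Mir30c-2 goes from 21.05 to 33.8 CPM in WT to 71.4 to 127 CPM in KO.

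Counted together, 3 of 6 members passed adjusted p under 0.05 with a log2 fold change over 1, all higher in KO, where 19.7% of all RNAs tested were called, 13.4% higher and 6.23% lower. Higher levels without overlap were seen for 5 of 6 members, against 20.4% of all RNAs. Mir30c-1 and Mir30c-2 enter both counts as separate rows, although they are largely 1 measurement. The median log2 fold change of all RNAs was 0.10. Other microRNA rows were higher too. Of the other 226 microRNA rows, 52 were called higher, with a median log2 fold change of 1.06. The let-7 family had 4 of 12 called higher (median 1.23), 15 broadly expressed microRNAs had 5 (median 0.73), and the miR-10, miR-99, miR-100 and miR-125 group had 0 of 8 (median 0.60).

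The share of counts on microRNA rows was 0.205 to 0.353% in WT corpus fluid and 0.374 to 0.812% in KO, while totals were 3.99 to 10.2 M in WT and 1.95 to 3.37 M in KO. With every fluid library thinned to 1948718 counts, Mir30a, Mir30c-1 and Mir30c-2 were still called higher (log2 fold changes 2.22, 1.95 and 1.98). Marker microRNAs of some cell types were higher in the same libraries. Epithelial markers summed to 27.1 to 62.5 CPM in WT and 87.5 to 134 CPM in KO, and germ cell markers to 3.58 to 9.06 and 12.8 to 15.4 CPM, without overlap. The sums of smooth muscle markers (90.6 to 168 in WT, 127 to 267 CPM in KO), leukocyte markers (13.6 to 17.7 in WT, 17.2 to 70.8 CPM in KO) and blood markers (19.0 to 50.2 in WT, 18.4 to 120 CPM in KO) overlapped. The part of these other sources in the miR-30 differences was not tested.

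As shares of microRNA counts, some members did not overlap between the genotypes. How many other microRNA rows did the same on this scale was not counted. Mir30c-2 held 1.02, 0.981 and 1.19% of microRNA counts in WT corpus fluid and 1.92, 1.74 and 1.93% in KO. The KO shares were all above the WT shares. Mir30a went from 0.397, 0.203 and 0.263% in WT to 0.486, 0.429 and 0.474% in KO, also without overlap. Mir30d moved the other way, from 0.556, 0.430 and 0.348% in WT to 0.248, 0.299 and 0.240% in KO.

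The shares of Mir30b (0.606, 0.653 and 0.796% in WT, 0.939, 0.541 and 0.664% in KO) and Mir30e (0.274, 0.134 and 0.178% in WT, 0.194, 0.186 and 0.209% in KO) overlapped between genotypes. In a fit restricted to the 223 microRNA rows that passed the filter alone, Mir30c-1 and Mir30c-2 were higher by 0.74 and 0.73 on the log2 scale (edgeR adjusted p = 0.0327 and 0.034), under the fold threshold. Mir30a was at 0.62 (edgeR adjusted p = 0.195) and Mir30d at -0.84 (edgeR adjusted p = 0.0751), so 0 members were called on that scale. As a whole, the family made up 3.84, 3.38 and 3.95% of microRNA counts in WT corpus fluid and 5.71, 4.92 and 5.40% in KO, without overlap.

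**Figure D4:**
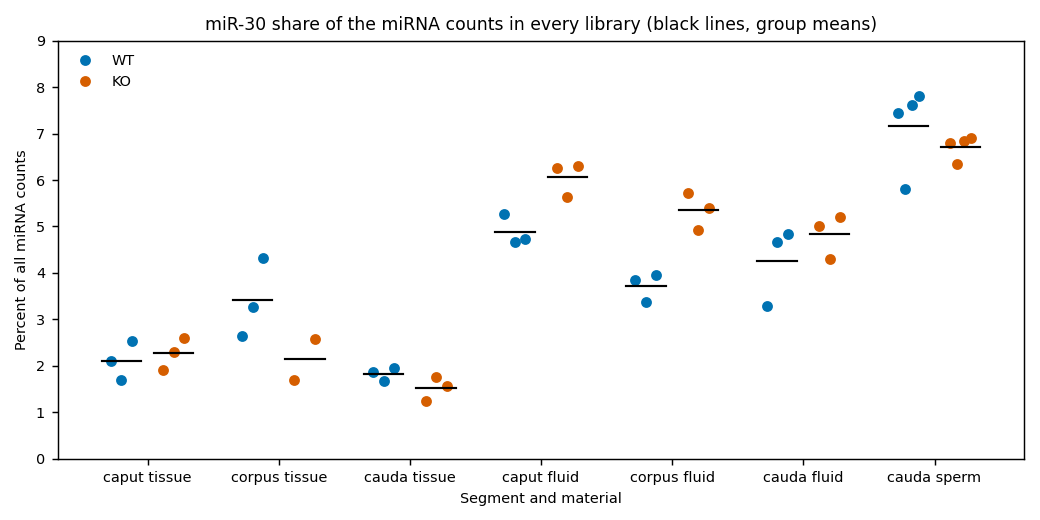
Share of microRNA counts (%) on the 6 miR-30 rows in every library, by material, segment and genotype; each point is 1 library and each line a group mean. In caput and corpus fluid the KO libraries lie above the WT libraries, and in corpus tissue below them. Overlap of other microRNAs on this scale was not counted.

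In caput fluid the log2 fold changes of all 6 members were also positive, and none passed the adjusted test. They were smaller than in corpus fluid for each member except Mir30d (0.71 in caput, 0.33 in corpus). Mir30c-2 was at 58.3, 37.4 and 43.3 CPM in WT and 65.0, 83.2 and 105 CPM in KO. Mir30a was at 12.4, 6.12 and 6.44 CPM in WT and 13.1, 17.0 and 18.9 CPM in KO, and Mir30b at 27.1, 20.8 and 21.7 CPM in WT and 34.5, 34.7 and 45.5 CPM in KO. None of these overlapped between genotypes, and 5 of 6 members were higher without overlap, against 13.3% of all RNAs tested.

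No member was called in caput fluid (0 of 6), where 0% of all RNAs were. The edgeR log2 fold changes ran from 0.71 to 0.97 with adjusted p of 0.399 to 0.614, and 3 members had an unadjusted p under 0.05 (Mir30a 0.97, Mir30c-1 0.86 and Mir30c-2 0.86), against 10.6% of all RNAs. In the fit of microRNA rows alone these 3 were at 0.39, 0.25 and 0.25. Mir30e overlapped, at 9.98, 2.10 and 3.89 CPM in WT and 8.66, 8.40 and 12.99 CPM in KO. The other microRNA rows had a median log2 fold change of 0.48. The miR-30 share of microRNA counts was 5.27, 4.65 and 4.72% in WT and 6.26, 5.63 and 6.30% in KO, without overlap. For other microRNAs, overlap on this scale was not counted.

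In cauda fluid, Mir30c-2 was at 40.0, 45.9 and 28.6 CPM in WT and 50.1, 61.7 and 81.4 CPM in KO. Mir30c-2 and Mir30c-1 were higher in KO without overlap (6.03% of all RNAs were), and the other 4 members overlapped. Mir30a, for example, was at 15.6, 17.6 and 6.80 CPM in WT and 10.3, 11.6 and 18.1 CPM in KO. The log2 fold changes were -0.01 to 0.76, and 0 members were called by edgeR, with 0 at an unadjusted p under 0.05 (9.29% of all RNAs) and 0 called by DESeq2. The miR-30 share of microRNA counts, 3.29, 4.66 and 4.84% in WT and 5.02, 4.31 and 5.20% in KO, overlapped as well. The share of counts on microRNA rows was higher in KO without overlap here too (0.130 to 0.384% in WT, 0.397 to 0.436% in KO).

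Whether the genotype difference itself varied between fluid segments was tested by interaction terms, added after the corpus values had been seen. For Mir30a the difference in corpus exceeded that in cauda by 1.79 on the log2 scale (edgeR adjusted p = 0.0736), where 7.37% of all RNAs were called. For Mir30c-2 this term was 1.11 (edgeR adjusted p = 0.213). Between corpus and caput fluid it was 0.99 for Mir30c-2 (edgeR adjusted p = 0.468), where 1.83% of all RNAs were called. DESeq2 called Mir30a in the corpus and cauda term (1.79, adjusted p = 0.036), but its share of all RNAs called is not given here. No member passed in any interaction by edgeR, so by that test the corpus difference was not shown to exceed those of the other segments.

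In corpus tissue the direction was opposite, with all 6 members lower in KO. The 2 KO libraries were below all 3 WT libraries for each member, against 15.2% of all RNAs. The KO corpus had no replicate 3, and WT corpus replicate 3 was the deepest of its group (162 M counts against 67.8 and 45.0 M). The part of this imbalance in the difference was not tested. Mir30a was at 5.23, 8.80 and 6.72 CPM in WT and 3.23 and 3.31 CPM in KO. Mir30d was at 3.10, 4.09 and 3.92 CPM in WT and 1.67 and 1.60 CPM in KO. Mir30c-2 was at 0.878, 1.51 and 1.43 CPM in WT and 0.402 and 0.398 CPM in KO.

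None of these passed the adjusted test by edgeR (0 of 6, adjusted p 0.381 to 0.592), and 0% of all RNAs were called, although all 6 had an unadjusted p under 0.05, as did 8% of all RNAs. The log2 fold changes were -1.08 for Mir30a, -1.18 for Mir30d, -1.20 for Mir30e, -1.67 for both Mir30c-1 and Mir30c-2 and -2.07 for Mir30b. The value of Mir30b rests on few reads, 1 and 14 counts in the KO libraries, and was -1.32 without KO replicate 1 and -4.65 without KO replicate 2. In a fit of the 148 microRNA rows that passed the filter alone, the log2 fold changes shrank to -0.17 for Mir30a, -0.29 for Mir30d, -0.30 for Mir30e, -0.78 for Mir30c-1, -0.77 for Mir30c-2 and -1.20 for Mir30b (edgeR adjusted p 0.261 to 0.813). DESeq2 called Mir30c-1 and Mir30c-2 lower (log2 fold changes -1.68 and -1.67, adjusted p = 0.034 and 0.0291). The 0% above is that of edgeR, and the share of all RNAs called by DESeq2 is not given here.

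Other microRNAs were lower in KO corpus tissue as well. Negative values were seen for 146 of the other 166 microRNA rows (median log2 fold change -1.01), for 12 of 12 let-7 rows (median -0.49) and for 8 of 8 rows of the miR-10, miR-99, miR-100 and miR-125 group (median -1.38). MicroRNA rows held 0.0340 to 0.0515% of counts in WT and 0.0235 to 0.0274% in KO. Epithelial markers summed to 16.3 to 25.9 CPM in WT and 10.47 to 10.7 CPM in KO, and smooth muscle markers to 44.2 to 87.5 and 24.3 to 29.5 CPM, and their part in the miR-30 values was not tested. The miR-30 share of microRNA counts was 2.64, 3.27 and 4.33% in WT and 1.70 and 2.57% in KO, without overlap but with 2.57 and 2.64% close together. How many other microRNAs were free of overlap on this scale was not counted.

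In caput and cauda tissue no member was called by edgeR or DESeq2, and every member overlapped between genotypes. Mir30a was at 4.71, 1.32 and 2.43 CPM in WT caput and 2.65, 3.87 and 4.05 CPM in KO caput. The caput log2 fold changes were -0.02 to 0.83, with 0 members at an unadjusted p under 0.05, against 0.975% of all RNAs, of which 0% were called. Mir30a in cauda was at 6.27, 2.79 and 4.43 CPM in WT and 3.76, 3.92 and 2.51 CPM in KO, a log2 fold change of -0.41 (SE 0.43). Mir30c-2 in cauda differed by 0.00 (SE 0.40) between genotypes. In cauda tissue, where 0.86% of all RNAs were called, Mir30e was at 0.896, 0.420 and 0.712 CPM in WT and 0.198, 0.183 and 0.438 CPM in KO. The ranges overlapped, and the log2 fold change of -1.18 (SE 0.49) had an edgeR adjusted p of 0.247, the 1 member with an unadjusted p under 0.05, against 15.1% of all RNAs. Its KO counts were 3, 5 and 31. The genotype difference of Mir30e in cauda tissue was lower than that in caput tissue by an interaction term of -2.01 (edgeR adjusted p = 0.679).

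In cauda sperm the genotypes overlapped for each of the 6 members. Mir30c-2 was at 28.8, 8.58, 18.5 and 50.9 CPM in WT and 22.5, 30.4, 30.1 and 35.0 CPM in KO. The spread among WT libraries was wider than the distance between the group means. The log2 fold changes of the members were -0.20 to 0.43, with edgeR adjusted p of 0.762 to 0.987. Neither edgeR nor DESeq2 called a member (0 of 6 each), and edgeR called 0% of all RNAs. That 0% holds for the edgeR fit alone. By DESeq2, the paper reported many tRNA fragments and some rRNA fragments lower in KO sperm, with no similar lowering of microRNAs. None of the members (0 of 6) had an unadjusted p under 0.05, against 17.5% of all RNAs.

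Mir30b was at 12.9, 4.29, 3.70 and 24.9 CPM in WT sperm and 10.3, 12.1, 10.3 and 7.20 CPM in KO. Mir30a was at 4.99, 1.17, 5.81 and 5.78 CPM in WT and 4.50, 5.02, 4.41 and 11.0 CPM in KO. Mir30d, the least abundant member in sperm, was at 0.390 to 3.25 CPM in WT and 1.45 to 2.80 CPM in KO. These values rest on 1 to 158 counts of Mir30d and 22 to 1843 counts of Mir30c-2 in the WT libraries. The other microRNA rows in sperm had 0 of 211 called and a median log2 fold change of 0.28, against 0.14 for the 6 members.

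Depth was split in sperm, with WT replicate 1 and KO replicates 1 to 3 at 42.8 to 62.1 M counts and the other 4 libraries at 1.13 to 3.62 M. Among the deeper libraries, Mir30c-2 was at 28.8 CPM in WT and 22.5 to 30.4 CPM in KO. Among the shallower ones it was at 8.58 to 50.9 CPM in WT and 35.0 CPM in KO. Each depth class held 1 library of one genotype, so no test within a class was made, and a fit with depth as a term called 0 members. The miR-30 share of microRNA counts was 7.45, 5.81, 7.62 and 7.80% in WT and 6.80, 6.35, 6.84 and 6.90% in KO, also overlapping.

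**Figure D5:**
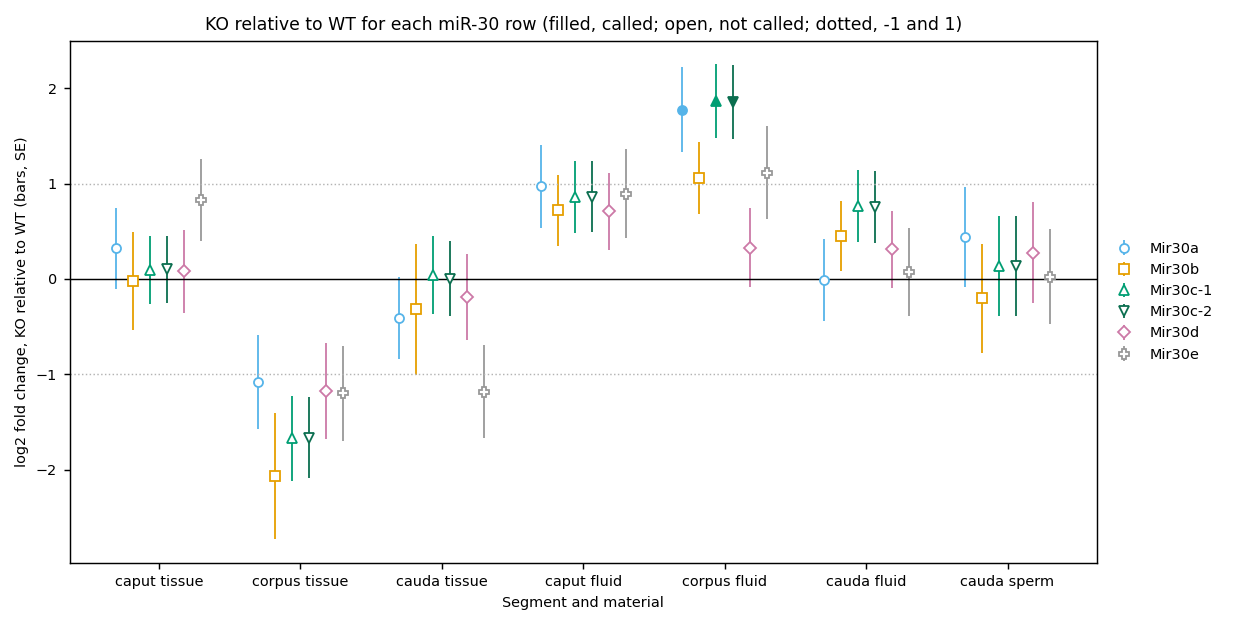
Log2 fold change of KO relative to WT for each member in the 7 genotype comparisons, with bars of 1 SE from the edgeR fit; filled symbols passed both thresholds. Corpus fluid stands above 0 (Mir30c-2 1.86) and corpus tissue below 0 (Mir30c-2 -1.67).

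Between segments, edgeR called no member in any of 8 comparisons. At an unadjusted p under 0.05, the WT tissue comparisons held 4 members from caput to corpus (23.8% of all RNAs), 4 from corpus to cauda (17.2%) and 0 from caput to cauda (33.9%), and KO tissue 1 from caput to cauda (40.2%). In WT fluid there were 2 from caput to corpus (31.3%), 1 from corpus to cauda (28.3%) and 0 from caput to cauda (39.4%), and in KO fluid 0 from caput to cauda (41.2%). DESeq2 called Mir30a and Mir30d in WT corpus against WT caput tissue and 1 member in KO cauda against KO caput tissue. Shares of all RNAs called by DESeq2 are not given here. In WT tissue from caput to corpus, where 11.8% of all RNAs were called, Mir30a averaged 2.82 ± 1.7 and 6.92 ± 1.8 CPM (n = 3 each). Its log2 fold change of 1.29 missed the threshold (edgeR adjusted p = 0.0622). Mir30e (1.32, edgeR adjusted p = 0.06) and Mir30d (1.25, edgeR adjusted p = 0.0758) were alike. These 3 were higher in corpus without overlap, as were 14.1% of all RNAs, whereas Mir30c-1 and Mir30c-2 overlapped at log2 fold changes of 0.55 and 0.54. When same-numbered libraries were blocked, which this comparison allows, Mir30a, Mir30d and Mir30e were called (log2 fold changes 1.36, 1.27 and 1.32, edgeR adjusted p = 0.0151, 0.0249 and 0.0169). The 11.8% called is from the fit without the block.

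From corpus to cauda, which uses the same corpus libraries, the WT tissue values of all 6 members were negative (log2 fold changes -0.62 to -1.31), and Mir30c-1, Mir30c-2 and Mir30d did not overlap, against 9.49% of all RNAs lower without overlap and 3.41% called. Mir30d averaged 3.70 ± 0.53 CPM in corpus and 1.66 ± 0.52 CPM in cauda (n = 3 each), a log2 fold change of -1.15 (edgeR adjusted p = 0.207). Caput and cauda, the ends of the duct, differed by -0.46 to 0.70 in WT tissue, with 0 members called against 23% of all RNAs. In KO tissue from caput to cauda, where 25.7% of all RNAs were called, Mir30e was at -1.31 (edgeR adjusted p = 0.0506), and when blocked by library number at -1.33 (edgeR adjusted p = 0.0209).

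In WT fluid from caput to corpus, where 17.7% of all RNAs were called, Mir30c-1 and Mir30c-2 were lower without overlap, as were 21.5% of all RNAs. Both log2 fold changes were -0.84 (edgeR adjusted p = 0.128 and 0.129). From corpus to cauda, where 2.17% were called, the log2 fold change of Mir30a was 0.99 (edgeR adjusted p = 0.154) and Mir30e was higher without overlap, as were 10.8% of all RNAs. From caput to cauda, where 25.1% were called, no member was called or free of overlap. In KO fluid from caput to cauda, where 26% were called, the 6 members lay between -0.08 and -0.40.

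Across libraries, members varied together to different degrees, described by Pearson's r of log2 CPM over libraries that share segments and genotypes. Mir30b and Mir30c-2 had an r of 0.943 over the 18 fluid libraries, while Mir30d, which neighbours Mir30b on chromosome 15, had its lowest r in fluid with Mir30b, 0.53. In tissue, Mir30a and Mir30d had an r of 0.846 over 17 libraries. Whether Mir30b or Mir30d share reads with other members was not examined, because their sequences had no entry. The RNAs most like Mir30a in tissue were Mirlet7g (0.921), Mirlet7d (0.893) and Mir148b (0.885). In fluid, those most like Mir30c-2 were Mir191 (0.926), Mir21a (0.905) and Mir126a (0.848). Over the 8 sperm libraries they were rmsk_5S_383 (0.991), Gm26387 (0.987) and Scarna10 (0.973), none of them named as a microRNA.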

How the data were processed

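Per the labels and methods, the authors trimmed the reads with cutadapt, aligned them to mm10 with Bowtie2 through a modified tRAX pipeline, and deposited raw counts per RNA feature. UMI-tools is also named in their processing notes. A read equally good on several features is counted on each, reads under 16 bases off tRNAs are dropped, and arms of a hairpin share 1 row, so members with identical 5′ arms cannot be separated.

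From these deposited counts, each table was fitted whole in edgeR 4.0.16 (R 4.3.3): RNAs were kept by filterByExpr (minimum count 10, minimum total 15), libraries scaled by TMM, and all groups fitted in 1 quasi-likelihood model per material without a replicate term. P-values were adjusted by Benjamini-Hochberg over all RNAs tested, and an RNA was called at adjusted p under 0.05 with an absolute log2 fold change over 1. CPM are TMM-scaled counts per 1000000 over all rows. A library is the replicate, so p-values measure the spread between libraries (pools of 3 mice in fluid and sperm).

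All 6 members are named in the text. Other RNAs are the 3 with the highest r to the leading member of a material. The members and lists were chosen with earlier results of these data known. The 46 pairs of replicate libraries differed by more than sampling noise. Same-numbered libraries deviated together in 5 of 15 comparisons (every r over 0.1, 0.175 to 0.670), namely KO against WT in cauda tissue, KO cauda against KO caput tissue and the 3 WT tissue segment comparisons, so a replicate block was used there as an alternative.

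Alternatives were DESeq2 1.42.0 (size factors, and its own test), library size scaling, no filter, microRNA rows alone, the block, each library left out, and, added after seeing the data, thinning to equal depth, a sperm depth term and the corpus interactions. Percentages of all RNAs called are those of the main edgeR fit, and none is given for an alternative. The fits were tested on simulated data. Coordinates are GENCODE vM21, and no columns of the authors' comparisons were used.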

Additional observations from a re-analysis of the deposited data

Results flagged for a closer look

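Mir30a in KO cauda sperm had 1 library far from the others of its group, replicate 4 at 11.0 CPM against 4.41 to 5.02 CPM in the other 3. That library was also the shallowest KO sperm library, with 3.62 M counts (M, 1000000). WT sperm replicate 1 stood apart in total counts, with 52.6 M against 1.13 to 3.03 M in the other 3. Of 28 such measures examined, chance alone would set apart about 1 in 20.

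The genotype difference of 5 members went in opposite directions in the tissue and the fluid of the corpus, with every KO library below the WT libraries in tissue and above them in fluid. The log2 fold changes in tissue and fluid were -1.08 and 1.78 for Mir30a, -2.07 and 1.05 for Mir30b, -1.67 and 1.86 for Mir30c-1, -1.67 and 1.86 for Mir30c-2, and -1.20 and 1.11 for Mir30e. The difference between materials was not tested, because tissue and fluid were sequenced by different protocols and counted in separate tables. The fluid values of Mir30b and Mir30e and all the tissue values missed the adjusted threshold by edgeR. Other microRNAs shifted likewise. Of the other 166 microRNA rows tested in tissue, 146 were negative in the corpus (median log2 fold change -1.01). Of the other 226 tested in fluid, 202 were positive in the corpus (median 1.06). How many other RNAs were free of overlap in both materials was not counted.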

How the results depend on the processing

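Limits first: tissue counts are low for some members (1 to 110 per library for Mir30b and 3 to 289 for Mir30e). KO corpus tissue has 2 libraries, and fluid KO corpus libraries are shallower than WT. In corpus fluid, where 3 members were called, restricting the fit to microRNA rows left 0 called and gave -0.0303 for Mir30b, -0.84 for Mir30d and -0.0485 for Mir30e (log2). The cause was not tested. DESeq2 called 2 members in KO against WT corpus tissue, 2 in WT corpus against WT caput tissue, 1 in KO cauda against KO caput tissue and 1 (Mir30a, 1.79) in the interaction of corpus and cauda fluid, where edgeR called 0; that cause was not tested either. In KO cauda against KO caput tissue, DESeq2 size factors gave 1 called member, library size scaling 3 and microRNA rows alone 1. Shares of all RNAs called under these alternatives are not given.

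With replicate number as a block (pairing), 3 members were called in WT corpus against WT caput tissue and 1 in KO cauda against KO caput tissue. In corpus fluid, where numbers do not pair the libraries, the block gave Mir30b 1.07 (edgeR adjusted p = 0.0464), so that 4 members were called. No other comparison changed its count of called members with the block. Leaving out 1 library at a time gave 0 to 1 called members in KO cauda against KO caput, WT corpus against WT caput and WT cauda against WT caput tissue. Without WT caput tissue replicate 1, Mir30a was called in the latter 2 (1.87 and 1.38).

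With Mir30c-1 left out, the miR-30 share of microRNA counts was 4.77% in WT and 4.44% in KO sperm, 3.35 and 4.15% in WT and KO caput fluid, 2.70 and 3.57% in corpus fluid, and 3.10 and 3.34% in cauda fluid. As a share of all counts, WT and KO stood at 0.000909 and 0.000993% in caput tissue, 0.00156 and 0.000535% in corpus tissue, 0.000860 and 0.000433% in cauda tissue, 0.0125 and 0.0252% in caput fluid, 0.0100 and 0.0304% in corpus fluid, 0.0122 and 0.0204% in cauda fluid, and 0.00834 and 0.00747% in sperm. The single-member results above were kept for members with an unadjusted p under 0.05 and for corpus fluid, a rule chosen after the values were seen. Over the other 88 results, the sign turned in 78 of 598 alternative values, for log2 fold changes up to 0.67, and in 106 of 691 values with 1 library left out.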

Other observations

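Mir384, whose 5′ arm carries the same seed as miR-30 (miR-384-5p: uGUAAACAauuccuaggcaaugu, seed in capitals, RefSeq GRCm38.p6), had a row only in the sperm table. It held 5 counts in 1 of 8 sperm libraries and 0 in the others.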
